A study of Mus musculus with 40 samples.

Results

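The mitochondrial ribosomal protein genes were taken as every gene of the count table whose symbol is Mrpl or Mrps followed by a number and, in some cases, a letter. They numbered 77 of 24062 genes, 48 with Mrpl and 29 with Mrps symbols. The rule used no measured value. The libraries came from primary mouse embryonic fibroblasts (MEFs), mixed connective tissue cells grown from whole embryos at 13.5 days post coitum and used at passage 3, of a mixed C57BL/6J-129P2OlaHsd strain. The embryos were WT, Het or KO for Sall2, which encodes a zinc finger transcription factor. The KO line was made in 129P2 stem cells and carries 129P2 sequence around Sall2 on chromosome 14, so KO and WT differ in more than the targeted gene. Cells were left untreated (control) or received 1 μM doxorubicin for 16 h. The control arm held 1 WT, 1 Het and 3 KO embryos. The doxorubicin arm held 1 WT, 1 Het and 2 KO embryos, because the libraries labelled as KO2 and KO3 with doxorubicin had identical counts for 24062 of 24062 genes and were counted once. The KO embryos are called KO1, KO2 and KO3 here, and the treated libraries KO1 and KO2. Whether the shared counts come from KO2 or KO3 is not known. Results that pair KO2 or leave out KO3 rest on taking them as KO2. The labels give cells of the same embryo numbers in both arms, and only KO had more than 1 embryo.

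Mitochondria keep their own ribosome, which translates the few respiratory chain subunits encoded by mitochondrial DNA. Its ribosomal RNAs are transcribed in the organelle, whereas all of its proteins are encoded in the nucleus, made in the cytosol and imported. Mrps genes encode proteins of the small subunit, which decodes the messenger RNA, and Mrpl genes encode proteins of the large subunit, which holds the peptidyl transferase centre. Some symbols depart from this. Mrps30 and Mrps18a encode proteins that sit in the large subunit, and the product of Mrps36 belongs to the 2-oxoglutarate dehydrogenase complex. Doxorubicin is an anthracycline that intercalates into DNA and poisons topoisomerase II.

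Promoters of these genes are known for sites of NRF1 and of ETS factors such as GABPA, which couple nuclear genes to mitochondrial demand. RefSeq promoter windows on GRCm38.p6, from 250 bases before to 50 bases after the start, were matched by symbol for 68 of the 77 genes. Some genes had several windows, and a gene was counted where any of them held the letters. The letters CCGGAAG of the ETS family motif, searched on both strands, were found in 25 of 68 genes (36.8%). The shares to compare were 9.93% of all 27025 genes with a promoter and 18% of 11112 with a mean of at least 10 counts. The NRF1 letters GCATGCGC were found in 8 genes (11.8%, against 3.05% of all and 5.5% of expressed genes). The YY1 letters AAGATGGC were found in 12 (17.6%, against 3.19% and 4.72%). The E-box CACGTG was found in 5 (7.35%, against 8.09% and 11.2%) and the GC box GGGCGG in 34 (50%, against 38.2% and 67.4%). NRF1 matches overlap each other where the letters form a palindrome, and a match is a description of the letters, not of binding. The windows of Mrps16, Mrps18b and Mrpl32, which fell with doxorubicin, and of Mrpl28, which rose, are shown because they hold different sets of these letters. Capitals mark matches to the NRF1 and ETS letters on either strand.
Mrps16 (chr14:20393441-20393740, minus strand): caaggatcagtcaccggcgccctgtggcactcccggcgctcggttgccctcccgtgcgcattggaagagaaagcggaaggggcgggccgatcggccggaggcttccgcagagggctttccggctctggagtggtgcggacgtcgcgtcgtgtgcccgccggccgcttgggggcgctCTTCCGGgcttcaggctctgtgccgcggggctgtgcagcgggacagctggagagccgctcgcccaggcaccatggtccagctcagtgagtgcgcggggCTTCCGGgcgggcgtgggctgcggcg
Mrps18b (chr17:35916391-35916690, minus strand): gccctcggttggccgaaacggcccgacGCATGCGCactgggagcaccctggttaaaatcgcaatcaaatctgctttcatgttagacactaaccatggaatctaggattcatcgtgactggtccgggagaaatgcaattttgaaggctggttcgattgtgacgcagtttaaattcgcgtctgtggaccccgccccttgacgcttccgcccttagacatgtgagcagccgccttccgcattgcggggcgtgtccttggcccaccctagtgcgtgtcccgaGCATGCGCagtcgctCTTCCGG
Mrpl32 (chr13:14612988-14613287, minus strand): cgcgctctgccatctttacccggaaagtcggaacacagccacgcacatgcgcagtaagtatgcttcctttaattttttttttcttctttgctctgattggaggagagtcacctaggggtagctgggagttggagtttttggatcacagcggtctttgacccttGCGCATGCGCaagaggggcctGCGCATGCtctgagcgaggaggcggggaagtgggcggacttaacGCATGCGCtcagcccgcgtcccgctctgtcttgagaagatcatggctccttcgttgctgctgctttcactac
Mrpl28 (chr17:26123253-26123552, plus strand): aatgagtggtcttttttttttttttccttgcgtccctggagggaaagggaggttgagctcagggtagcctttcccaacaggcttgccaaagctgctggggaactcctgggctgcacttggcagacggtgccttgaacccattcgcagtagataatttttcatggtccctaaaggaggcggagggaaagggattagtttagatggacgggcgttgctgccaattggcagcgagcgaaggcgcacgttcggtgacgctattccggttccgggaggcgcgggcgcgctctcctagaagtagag
The window of Mrps16 held 2 ETS matches and no NRF1 match, that of Mrps18b held 2 NRF1 matches and 1 ETS match, that of Mrpl32 held 4 NRF1 matches, and that of Mrpl28 held neither. RefSeq gives another window for Mrps16, from a start further upstream, which held none of either. The 4 windows do not stand for the other genes. Among other genes that fell, the windows of Mrpl11, Mrpl12, Mrpl35, Mrps17 and Mrpl55 held neither, while those of Mrpl9, Mrpl17 and Mrps27 held matches. The window of Mrpl33, which was higher only without the Het embryo and KO3, held 1 of each.

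Totals per library lay between 15560728 and 24122414 counts, and a single mitochondrial ribosomal protein gene had between 7 and 3777 counts in a library. Levels are given as CPM, counts relative to the library size, which was scaled with TMM (trimmed mean of M values). Sall2 itself had 37.6 CPM in the WT, 24.1 in the Het and 19.9, 24.2 and 19.0 in the KO control libraries, so the KO libraries were lower but not at 0 and overlapped the Het library. Col1a1, Col1a2, Vim and 5 other fibroblast markers had counts in every library. So did all macrophage, endothelial and skeletal muscle markers in the count table, so counts alone do not set the cell type. The summed fibroblast markers had at least 10250 CPM in every library, against at most 733.3 CPM for the macrophage markers. The control libraries of the Het embryo and of KO3 stood apart from the other 3 controls. In both, 7 of 8 fibroblast markers were lower (summed level of 10250 to 11500 CPM, against 43320 to 51200 CPM), 5 of 8 macrophage markers were higher (450.3 to 633 CPM, against 116.3 to 211.8), and 8 of 8 interferon-response genes were higher (1954 to 2173 CPM, against 19.6 to 33.8). Of the 5 endothelial markers 1 was higher and 3 were lower, of the 4 skeletal muscle markers 3 were higher and 1 was lower, and of the 4 epithelial markers none was higher and 3 were lower, with Epcam at 0 counts in the Het control and Cdh1 at 0 in the KO3 control. Summed levels of these lists were at most 108 CPM in any library. With doxorubicin the Het library kept low fibroblast (12680 CPM) and high macrophage (733.3 CPM) markers. Of 10 p53 targets, which DNA damage commonly induces, none rose with doxorubicin and Phlda3 fell, on an FDR threshold of 0.01, and without the Het embryo and KO3 1 rose and 2 fell. Over all genes tested 21.9% rose and 18.7% fell, and without these embryos 35.1% rose and 31.4% fell. The doxorubicin counts of the 77 genes and of the gene lists are therefore also given without the Het embryo and KO3.

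In the WT, KO1 and KO2 controls the median level over the 77 genes was 26.7 CPM (quartiles 19.2 and 38.9). Their counts were 0.183% to 0.193% of the library in these 3 controls, 0.380% in the Het and 0.431% in the KO3 control. Per kilobase of the GENCODE principal transcript, Mrpl33 (107 CPM per kb), Mrpl52 (97.7 CPM per kb) and Mrpl20 (80.4 CPM per kb), all large subunit genes, had the highest levels. Mrpl23 was near the limit of measurement, with 1.22 CPM per kb and fewer than 50 counts in each library. After it came Mrpl47 (3.23 CPM per kb) and Mrpl48 (3.44 CPM per kb). Apart from Mrpl23 the levels spanned 33.3-fold per kilobase, although the proteins are incorporated into the same particle. Mrps36, whose product is not a ribosomal protein, had 8.84 CPM per kb, and Mrps30 had 10.7 CPM per kb. These ratios depend on the transcript assumed for each gene.

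The first question was whether doxorubicin changed these genes. Of the 77 genes, all of which passed the filter on low counts, 21 were lower and 2 were higher with doxorubicin (edgeR's quasi-likelihood test over all 9 libraries with genotype as a covariate, FDR under 0.01), while over all 16656 genes tested 18.7% were lower and 21.9% were higher. The median log2 fold change was −0.33 over the 77 genes and 0.02 over all genes tested. The lower genes came from both subunits, 7 of 29 with Mrps and 14 of 48 with Mrpl symbols, and 18 of the 77 were called lower by at least 2-fold, against 14.2% of all genes tested. Every doxorubicin library lay below every control library for 30 of the 77 genes, against 21.6% of all genes tested, and above every control library for 1, Mrpl28, against 24.8%. Within embryos, 41 genes were lower with doxorubicin in all 4 pairs (34.9% of all genes tested) and 9 were higher in all 4 (39.2%). In bulk RNA, less RNA per cell and fewer cells of a type cannot be told apart.

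**Figure D1:**
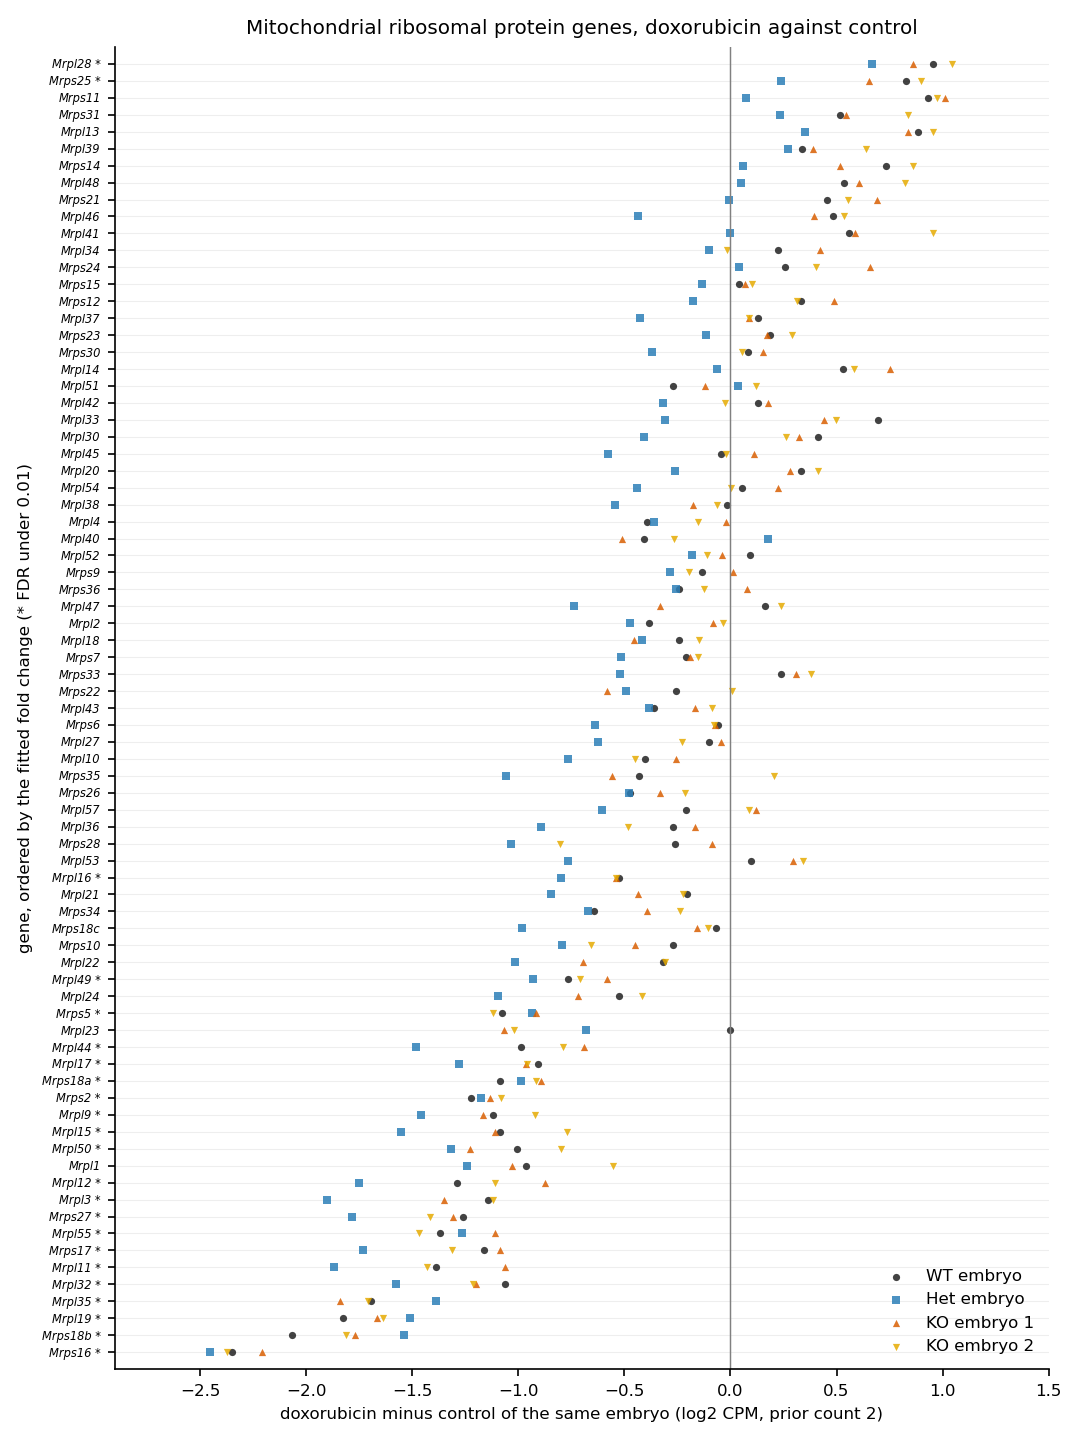
Difference between doxorubicin and control of the same embryo (log2 CPM) for each of the 77 genes, ordered by the fold change fitted over all libraries, with 1 symbol per embryo and an asterisk at genes past an FDR of 0.01. Mrps16 at the bottom was below −2.2 in all 4 embryos, Mrpl28 at the top was above 0.66 in all 4, and the Het embryo (squares) lay left of the others for most genes.

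Mrps16, which encodes a conserved protein of the small subunit body, fell the most. Its level was 28.5 CPM in WT, 44.2 in Het and 28.1, 28.9 and 51.6 in KO1, KO2 and KO3 without treatment, and 5.52 in WT, 7.99 in Het and 6.01 and 5.51 in KO1 and KO2 with doxorubicin. The arms did not overlap, and the log2 fold change was −2.54 (SE 0.23, edgeR adjusted p = 5.85e-05), a 5.84-fold decrease. Mrps16 lies on chr14:20389304-20393634 and has 3 exons. Mrps18b, 1 of 3 paralogs that encode alternative or additional copies of the bacterial S18 protein, had 24.7 to 28.1 CPM in the 5 controls and 6.32, 9.59, 7.18 and 7.12 CPM in the WT, Het, KO1 and KO2 libraries with doxorubicin. It fell by 1.83 on the log2 scale (SE 0.16, edgeR adjusted p = 4.57e-05). The Het and KO3 controls were not set apart for this gene.

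The other S18 paralogs took different courses. Mrps18a had 21.5 CPM in WT, 36.3 in Het and 24.4, 22.7 and 37.2 in KO1 to KO3, and 10.1, 18.3, 13.1 and 11.98 CPM with doxorubicin in WT, Het and KO1 and KO2. It fell by 1.11 on the log2 scale (SE 0.19, edgeR adjusted p = 0.00125). Mrps18c was the one of the 3 that did not pass the threshold. Its level was 17.4 CPM in WT, 19.4 and 17.9 in KO1 and KO2, 39.7 in Het and 52.8 in KO3 without treatment, and 16.6 to 20.1 CPM with doxorubicin, with a log2 fold change of −0.69 (SE 0.35, edgeR adjusted p = 0.123). Without the Het embryo and KO3 its log2 fold change was −0.12 (SE 0.11, edgeR adjusted p = 0.376). The differences between the paralogs were not tested.

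Among large subunit genes, Mrpl19 had 25.2 to 31.0 CPM in the controls and 7.66 to 8.96 CPM with doxorubicin (log2 fold change −1.69, SE 0.15, edgeR adjusted p = 4.6e-05). Of its exonic bases 39.2% also lie in exons of Gcfc2 on the opposite strand, so its counts are uncertain where the counting did not use strand, a setting not given in the sources used here. Mrpl35 had 22.4 to 25.1 CPM in the controls and 6.96 to 8.48 CPM with doxorubicin, and fell by 1.67 on the log2 scale (SE 0.16, edgeR adjusted p = 6.13e-05). For both genes all 5 controls lay close together and far above all 4 treated libraries. Mrpl12, whose product also binds the mitochondrial RNA polymerase, had 58.7 CPM in WT, 74.6 in Het and 68.0, 60.4 and 93.5 in KO1 to KO3. With doxorubicin it had 23.9, 22.1, 37.0 and 28.0 CPM in WT, Het, KO1 and KO2. The fall was 1.34 on the log2 scale (SE 0.19, edgeR adjusted p = 0.000491).

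Mrpl11, Mrpl32, Mrps17 and Mrpl55 also fell, by 1.53 to 1.63 on the log2 scale, but in these genes the Het and KO3 controls were well above the rest. Mrpl32, a large subunit protein whose maturation by the mitochondrial m-AAA protease precedes ribosome assembly, had 22.2, 24.6 and 22.1 CPM in the WT, KO1 and KO2 controls, and 49.2 and 65.5 CPM in the Het and KO3 controls. With doxorubicin it had 10.6, 16.4, 10.7 and 9.46 CPM in WT, Het, KO1 and KO2. The log2 fold change was −1.63 (SE 0.36, edgeR adjusted p = 0.00441) over all libraries and −1.17 (SE 0.12, edgeR adjusted p = 1.38e-05) without the Het embryo and KO3. Mrps27 and Mrpl44, an RNA-binding protein of the small subunit and an RNase III-like protein of the large subunit, fell by 1.38 and 1.02 on the log2 scale (SE 0.22 and 0.19, edgeR adjusted p = 0.000775 and 0.00201). The exons of Mrps27 share 22.6% of their bases with another gene.

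Mrpl28 and Mrps25 were the genes that rose. Mrpl28 had 47.6 CPM in WT, 58.2 in Het and 57.6, 49.2 and 75.2 in KO1 to KO3 without treatment, and 92.4, 92.3, 104.8 and 101.6 CPM in WT, Het and KO1 and KO2 with doxorubicin. All treated libraries lay above all controls, with a log2 fold change of 0.79 (SE 0.16, edgeR adjusted p = 0.00265). Mrps25 had 26.6 to 33.2 CPM in the controls, 52.6, 52.3 and 55.0 CPM with doxorubicin in WT and KO1 and KO2, and 31.4 CPM in Het, which fell within the controls. Its log2 fold change was 0.69 (SE 0.15, edgeR adjusted p = 0.00398), and 75.6% of its exonic bases lie opposite exons of Nr2c2. Without the WT embryo, KO1 or KO2, neither gene passed, and the count of higher genes was 0.

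**Figure D2:**
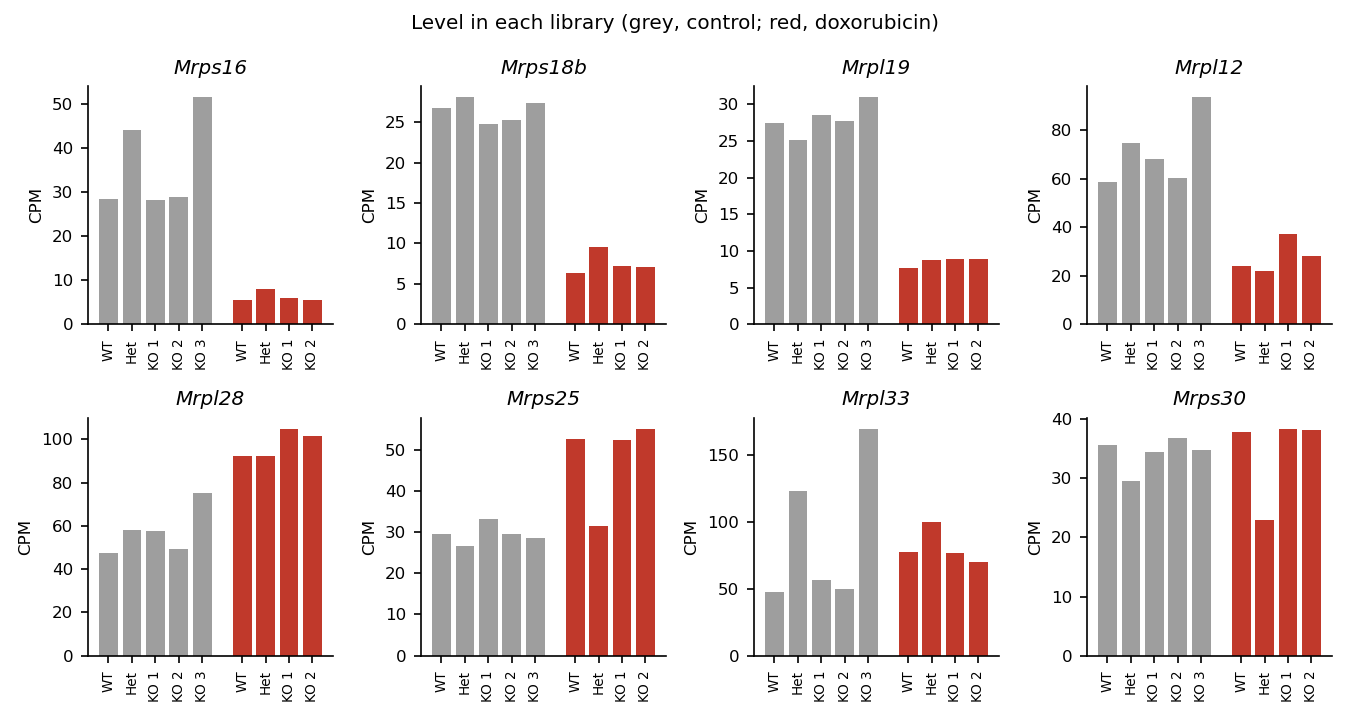
Level (CPM) of 8 of the genes in each of the 9 libraries, controls in grey and doxorubicin in red, with each axis starting at 0. Mrps16, Mrps18b, Mrpl19 and Mrpl12 were lower in every treated library, Mrpl28 was higher in every one, Mrps25 was higher in all but Het, Mrpl33 was high in the Het and KO3 controls, and Mrps30 was lowest in Het with doxorubicin.

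The numbers of lower and higher genes both depended on the libraries, as did the shares over all genes. Without the Het embryo and KO3, 25 of the 77 genes were lower and 17 were higher, while over all 15442 genes tested 31.4% were lower and 35.1% were higher, and the median over the 77 genes was −0.19. All 21 genes that were lower over all libraries were lower here too, and Mrpl28 and Mrps25 were again higher. In this fit the share of lower genes was near that over all genes, and the share of higher genes was below it. The gain in higher genes included Mrps11, Mrpl13, Mrps14, Mrpl20 and Mrpl33. Mrpl33 had 47.8, 56.6 and 49.6 CPM in the WT, KO1 and KO2 controls and 77.4, 76.8 and 69.9 CPM in the same embryos with doxorubicin, so that these arms did not overlap. In Het and KO3 without treatment it had 123.2 and 169.5 CPM, and in Het with doxorubicin 99.6 CPM. Its log2 fold change was −0.09 (SE 0.38) over all libraries and 0.54 (SE 0.10, edgeR adjusted p = 0.000657) without these embryos. Mrps11 had a log2 fold change of 0.55 (SE 0.24, edgeR adjusted p = 0.0838) over all libraries and 0.97 (SE 0.10, edgeR adjusted p = 8.8e-06) without them, and Mrpl13 one of 0.51 (SE 0.25, edgeR adjusted p = 0.115) and 0.89 (SE 0.09, edgeR adjusted p = 7.49e-06). With the embryo as a block in the fit, 26 genes were lower and 4 were higher, against 26.9% and 30% of all genes tested. The added genes were Mrpl1, Mrpl10, Mrpl24, Mrps10 and Mrps34 (lower) and Mrpl13 and Mrps11 (higher). Of the exonic bases of Mrps34, Mrpl24, Mrpl13 and Mrps11, 62.7%, 43.6%, 27% and 16.4% lie opposite exons of another gene. Their counts are uncertain in the way given for Mrpl19. Leaving out KO1 or KO2 reduced the lower genes to 12 or 11, and scaling by total counts reduced them to 13. Leaving out KO3 alone gave 27 lower and 7 higher genes, and leaving out the WT embryo 16 lower and none higher. The share called over all genes, which also changed with the libraries, is not given for these fits. These counts therefore cannot be set beside all genes. Of the 21, 11 passed under all 14 alternatives run: Mrps2, Mrps16, Mrps18b, Mrpl3, Mrpl9, Mrpl11, Mrpl12, Mrpl15, Mrpl17, Mrpl19 and Mrpl35.

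Mrps30, Mrps15 and Mrpl51 had fold changes within their SE of 0, and all 3 missed the threshold without the Het embryo and KO3 as well. Mrps30, a large subunit protein despite its symbol, had 35.7, 29.5, 34.5, 36.8 and 34.7 CPM in the WT, Het and KO1 to KO3 controls, and 37.8, 22.9, 38.3 and 38.2 CPM in WT, Het and KO1 and KO2 with doxorubicin. Its log2 fold change was −0.0008 with an SE of 0.14 (edgeR adjusted p = 0.996). Mrps15 had a log2 fold change of 0.06 (SE 0.13) and Mrpl51 one of −0.05 (SE 0.12). Mrps28, a small subunit protein, had a log2 fold change of −0.57 (SE 0.22, edgeR adjusted p = 0.0503), and Mrps36 one of −0.29 (SE 0.25, edgeR adjusted p = 0.34). Other genes missed the threshold over all libraries but not without the Het embryo and KO3. Mrpl41 had a log2 fold change of 0.13 (SE 0.36), with 58.1 and 64.0 CPM in the Het and KO3 controls and 19.5 to 21.1 CPM in the other 3, and one of 0.71 (edgeR adjusted p = 0.000367) without these embryos. Mrpl39, Mrps31, Mrps14 and Mrpl48 had log2 fold changes of 0.37 to 0.54 over all libraries, and of 0.46 to 0.70 with calls in edgeR's test without them.

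The differences were alike from embryo to embryo in order but not in size. The median difference between doxorubicin and control over the 77 genes was −0.24 in WT, −0.58 in Het, −0.17 in KO1 and −0.12 in KO2 on the log2 CPM scale, with a mean of −0.28 and an SD of 0.21 over the 4 embryos. The same medians over all genes tested were 0.12, −0.03, 0.13 and 0.10. In Het 66 of the 77 genes were lower, against 49, 47 and 48 in the others. Across the 77 genes, which are not independent replicates, Pearson's correlation of these differences between pairs of embryos lay between 0.88 and 0.95, and across all genes tested between 0.84 and 0.95. A total of 11 of the 77 genes, against 9.66% of all genes tested, were lower by at least 2-fold in each of the 4 embryos, namely Mrps2, Mrps16, Mrps17, Mrps18b, Mrps27, Mrpl3, Mrpl11, Mrpl19, Mrpl32, Mrpl35 and Mrpl55.

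In KO alone, the only genotype with replicate embryos, 4 of the 77 genes were lower (Mrps16, Mrps18b, Mrpl19 and Mrpl35) and none was higher on edgeR's test, while 4.76% of all 14904 genes tested were lower and 8.06% higher. At an unadjusted p under 0.05 it was 27 of the 77 genes in either direction, against 6844 of all 14904 genes, and DESeq2 called 18 lower and 1 higher. The share that DESeq2 called over all genes is not given. Without KO3, for which no treated library was used, 20 genes were lower and 11 higher, against 26.2% and 29.1% of all genes tested. With the embryo as a block, 24 were lower and 16 higher, against 32% and 35.5%. In the KO fits with a share over all genes given here, the share of lower genes was near it. The share of higher genes was below it. Without KO1 or KO2 no gene was called. The median log2 fold change over the 77 genes was −0.32 in the fit of all KO libraries and −0.10 with the block.

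Genes that work with the mitochondrial ribosome were compared next. Mitochondrial ribosomal proteins with other symbols fell in 4 of 6 cases (Dap3, Ptcd3, Ict1 and Gadd45gip1), with a median log2 fold change of −0.89. Gadd45gip1, which encodes a large subunit protein at the exit tunnel, had 26.6 to 34.5 CPM in the controls and 6.77 to 11.3 CPM with doxorubicin (log2 fold change −1.77, SE 0.19, edgeR adjusted p = 0.000127). Of 12 mitochondrial translation factors 5 fell and 1 rose (median −0.89). The initiation factor gene Mtif2 fell by 1.51 (SE 0.24, edgeR adjusted p = 0.000869), and Mtrf1l, a release factor gene, rose by 1.48 (SE 0.19, edgeR adjusted p = 0.000284) on the log2 scale. Of 23 genes of mitochondrial ribosome assembly 8 fell and 3 rose (median −0.56). Fastkd2, an RNA-binding assembly factor, had 21.4 to 26.7 CPM in the controls and 4.62 to 5.07 CPM with doxorubicin (log2 fold change −2.31, SE 0.17, edgeR adjusted p = 2.0e-05). Noa1, a GTPase of the small subunit, had 14.4 to 26.7 CPM in the controls and 59.98 to 99.7 CPM with doxorubicin, a log2 fold change of 2.02 (SE 0.19, edgeR adjusted p = 6.0e-05). Of 17 mitochondrial aminoacyl-tRNA synthetase genes 6 fell and 1 rose (median −0.61), and of 14 genes of mitochondrial transcription and RNA processing 2 fell and none rose (median −0.56). All of these counts stand beside 18.7% lower and 21.9% higher over all genes tested. The counts without the Het embryo and KO3, given next, stand beside 31.4% lower and 35.1% higher. Without the Het embryo and KO3 the lower and higher genes were 4 and 0 of the 6 other ribosomal proteins, 6 and 1 of the translation factors, 11 and 4 of the assembly genes, 10 and 1 of the synthetases, and 5 and 1 of the transcription and RNA genes, with medians of −0.80, −0.61, −0.45, −0.69 and −0.25.

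Of 10 regulators of mitochondrial gene expression 4 fell and none rose, and without the Het embryo and KO3 5 fell and 2 rose. Over all genes tested 18.7% fell and 21.9% rose, and without these embryos 31.4% fell and 35.1% rose. Nrf1 fell from 19.8 to 31.0 CPM in the controls to 7.79 to 15.02 CPM with doxorubicin (log2 fold change −1.25, SE 0.25, edgeR adjusted p = 0.00253). Pprc1, a coactivator of the PGC-1 family, fell by 1.97 on the log2 scale (SE 0.19, edgeR adjusted p = 6.6e-05), Myc by 1.21 (SE 0.19, edgeR adjusted p = 0.00077) and Yy1 by 0.60 (SE 0.14, edgeR adjusted p = 0.00588). Gabpa had a log2 fold change of −0.001 (SE 0.22, edgeR adjusted p = 0.997). The other PGC-1 family genes, Ppargc1a and Ppargc1b, had log2 fold changes of 1.07 (SE 0.78, edgeR adjusted p = 0.272) and 0.93 (SE 0.43, edgeR adjusted p = 0.0963), and Gabpb1, Esrra and Sp1 ones of −0.12, 0.09 and −0.39 that missed the threshold. The 8 ribosomal protein genes with the NRF1 letters in a promoter window had a median log2 fold change of −0.90, and the 60 without them −0.315. The 25 with the ETS letters had a median of −0.35 and the 43 without −0.31. For the YY1 letters the medians were −0.43 for the 12 with them and −0.33 for the 56 without. These medians were not tested.

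Nuclear genes of oxidative phosphorylation and genes of cytoplasmic ribosomal proteins had medians above 0 over all libraries, but their counts and, for the latter, the sign of the median depended on the libraries and the method. Of 75 nuclear genes of oxidative phosphorylation 7 were higher and 3 lower (median log2 fold change 0.32), and of 81 genes of cytoplasmic ribosomal proteins 2 were higher and none lower (median 0.14, edgeR at an FDR under 0.01), against 21.9% higher and 18.7% lower over all genes tested. At an unadjusted p under 0.05 the latter were 15 in either direction, against 10096 of all 16656 genes. Without the Het embryo and KO3, 50 oxidative phosphorylation genes were higher and 5 lower (median 0.64), and 52 cytoplasmic ribosomal protein genes were higher and none lower (median 0.53), against 35.1% and 31.4% of all genes tested. With the embryo as a block 37 and 26 were higher, and 4 and 1 lower, against 30% higher and 26.9% lower over all genes tested. With RUVg the medians were 0.03 and −0.19, with 8 higher and 8 lower among the former and 1 higher and 10 lower among the latter. Within embryos the medians of the oxidative phosphorylation genes were 0.67 in WT, 0.09 in Het and 0.63 in both KO embryos, and those of the cytoplasmic ribosomal protein genes were 0.54, −0.11, 0.51 and 0.57. The difference between the lists was not tested.

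**Figure D3:**
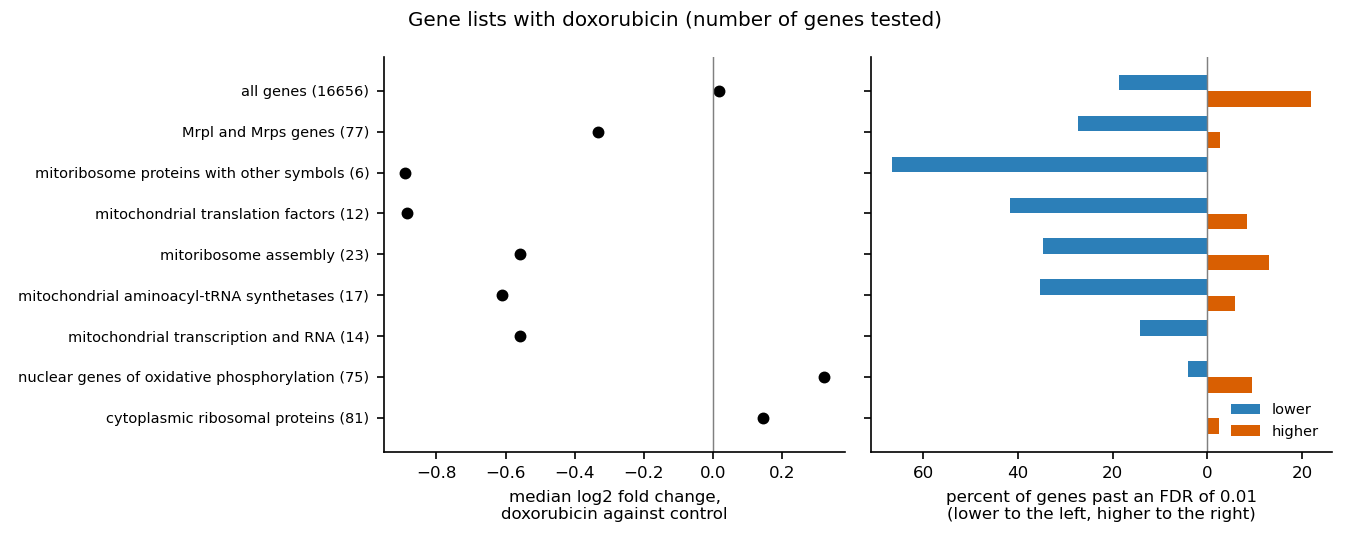
Median log2 fold change with doxorubicin (left) and percent of genes past an FDR of 0.01 in each direction (right) for the mitochondrial ribosomal protein genes, 7 related lists and all genes tested. The 5 other lists of mitochondrial gene expression had medians between −0.89 and −0.56, below the −0.33 of the ribosomal protein genes, while oxidative phosphorylation and cytoplasmic ribosomal protein genes had medians of 0.32 and 0.14 in this fit, against 0.03 and −0.19 with RUVg.

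Transcript length moved with these differences. The 77 genes had a median principal transcript of 1288 bp (418 to 7300 bp), against 3035 bp over the 14953 genes tested that had a length. Over all genes, short transcripts were higher with doxorubicin. In WT the median difference was 0.83 for 277 genes under 700 bp and −0.26 for 4918 genes of 4000 bp or more. Among the 77 genes in WT the median was 0.18 for 8 genes under 700 bp, fell to −0.96 for 11 genes of 2500 to 4000 bp and was −0.91 for 9 genes of 4000 bp or more. In Het it did not fall steadily, with −0.64 at 700 to 1000 bp and −0.45 at 1000 to 1500 bp. In all 4 embryos and all 6 length classes, 24 of 24 cases, their median was below that of all genes of the class. Of the 38 genes shorter than the median 4 were lower with doxorubicin, and of the other 39 genes 17 were lower. Spearman's rho of the fold change with transcript length was −0.29 over the 77 genes and −0.13 over all genes tested with a length, given as a description. The part of transcript length in the result was not tested.

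**Figure D4:**
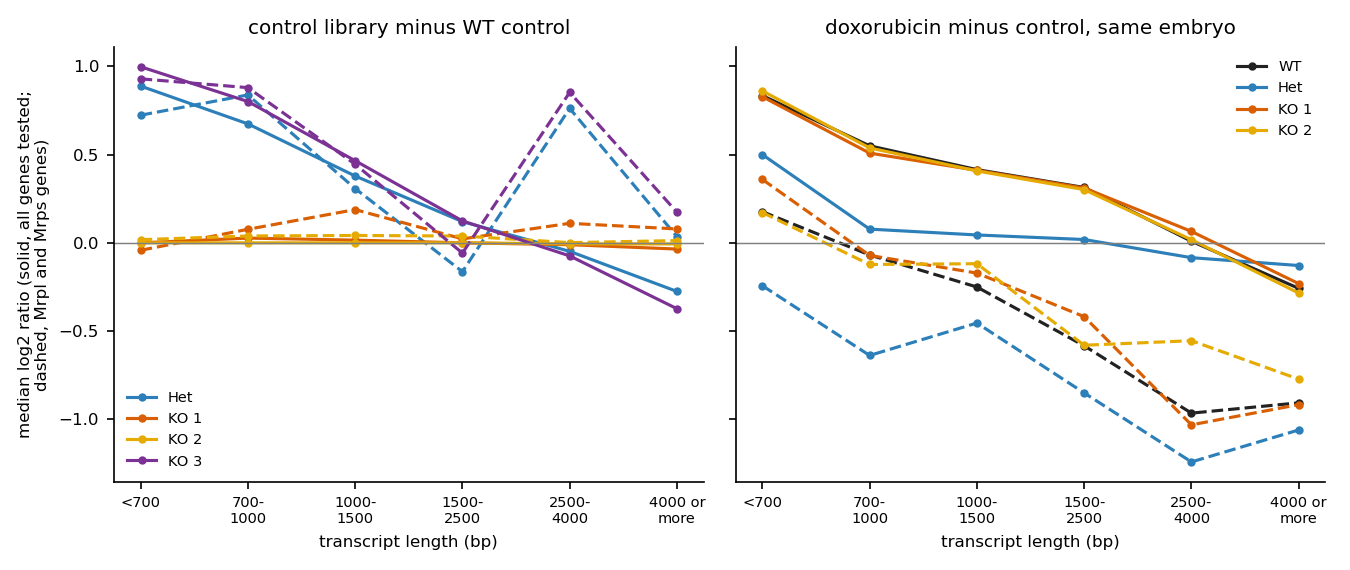
Median log2 ratio by class of principal transcript length (bp) for all genes tested (solid) and the 77 mitochondrial ribosomal protein genes (dashed), for control libraries against WT control (left) and doxorubicin against control of the same embryo (right). On the right each dashed line lies below the solid line of the same embryo, and on the left the solid Het and KO 3 lines fall with length, their dashed lines fall to −0.16 and −0.06 at 1500 to 2500 bp and return to 0.76 and 0.85 at 2500 to 4000 bp, and those of KO 1 and KO 2 stay near 0.

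The next question was whether loss of Sall2 changed these genes. In control, none of the 77 genes passed between KO and WT (edgeR, FDR under 0.01), against 0% of all 14470 genes tested, and none had an unadjusted p under 0.05. DESeq2 called none either. The WT group is 1 embryo, so the spread came from the KO embryos alone. The fitted log2 fold change was above 0 for 72 of the 77 genes, with a median of 0.28 against 0.04 over all genes. This rested on KO3. Against WT, the median over the 77 genes was 0.08 in KO1, 0.02 in KO2 and 0.55 in KO3, and 20 of the 77 genes were at least 2-fold higher in KO3, against 20.5% of all genes tested, and 0 in either of the others (4.15% and 2.31%). Without KO3 the median log2 fold change was 0.07, and again 0% of 13480 genes passed. The genes with the smallest p were Mrps10 (log2 fold change 0.60, SE 0.48) and Mrpl23 (1.08, SE 0.93), both with an edgeR adjusted p of 1.00.

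The Het and KO3 controls were alike in this. For 53 of the 77 genes both lay above the WT, KO1 and KO2 controls, against 37.8% of all genes tested. For 11 both lay below, and the share over all genes is not given for this direction. The ratio of Het to WT had a median of 0.40 on the log2 scale (12 of the 77 genes at least 2-fold higher, against 22.2% of all genes tested). Mrpl53 had 21.5, 20.5 and 19.4 CPM in the WT, KO1 and KO2 controls and 72.5 and 86.2 CPM in the Het and KO3 controls. The other 3 controls differed among themselves by a median of 1.11-fold. In the libraries set apart, short transcripts were higher over all genes as well (medians of 0.89 in Het and 1.00 in KO3 under 700 bp, and −0.28 and −0.37 at 4000 bp or more), and the macrophage and interferon genes given above were higher. The part of cell makeup, interferon state or transcript length in these values was not tested.

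**Figure D5:**
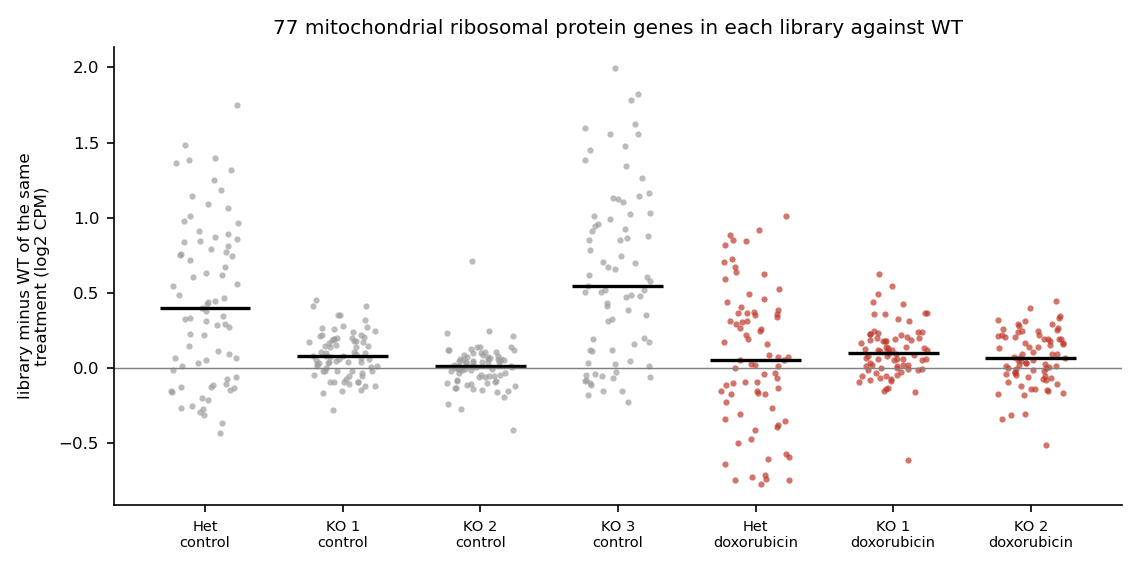
Log2 ratio of each of the 77 genes (points) in each Het and KO library to the WT library of the same treatment, with the median as a bar. The medians were 0.40 in Het and 0.55 in KO3 without treatment, and between 0.02 and 0.10 in the other 5 libraries.

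With doxorubicin, 0.197% of 15256 genes passed between KO and WT, none of them among the 77. At an unadjusted p under 0.05 it was 1 of the 77, against 433 of all 15256 genes. This was Mrpl12, with a log2 fold change of 0.43 (SE 0.21, edgeR adjusted p = 1). DESeq2 called none, and RUVg with the exact test called 5 higher and 1 lower. The share that RUVg called over all genes is not given. Mrpl51 had the next smallest p, with a log2 fold change of 0.36 (SE 0.20). The median over the 77 genes was 0.09, and 57 lay above 0. Over both treatments, 0% of 16656 genes passed between KO and WT, and none of the 77 had an unadjusted p under 0.05. The median was 0.21, and 0.07 without KO3. Mrpl12 (0.37, SE 0.24) and Mrps18a (0.35, SE 0.23) had the smallest p.

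Het against WT over both treatments gave 0% of 16656 genes past the threshold and none of the 77. At an unadjusted p under 0.05 it was 3 of the 77, against 3925 of all 16656 genes. Mrps18a had the smallest p (log2 fold change 0.81, SE 0.28, edgeR adjusted p = 0.2), and Mrps15, which had 27.5 CPM in Het and 31.7 to 37.0 CPM in the other controls, the next (−0.51, SE 0.19, edgeR adjusted p = 0.2). This call turned on KO3, which adds to the spread of the fit. Without it, 9 of the 77 genes were higher in Het (Mrpl1, Mrpl14, Mrpl32, Mrpl41, Mrpl53, Mrpl57, Mrps17, Mrps18a and Mrps24) and 0 lower, while 8.12% of all genes tested were higher and 11.6% lower. Both Het libraries come from 1 embryo, so genotype and embryo cannot be told apart.

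The difference between doxorubicin and control was also compared between KO and WT by an interaction term. None of the 77 genes and 0% of 15905 genes passed, and none of the 77 had an unadjusted p under 0.05. The median interaction over the 77 genes was −0.15, and 0.02 without KO3. With the embryo as a block it was 0.04, and 0.0503% of all genes passed, none of them among the 77. Mrpl23 (−1.57, SE 1.09) and Mrpl33 (−1.02, SE 1.05) had the smallest p. SEs of this size leave room for differences of 2-fold and more in these genes.

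The genes on chromosome 14, where Sall2 lies, were Mrps16, Mrpl52 and Mrpl57. Mrpl52 (chr14:54426909-54429756), a small large-subunit protein gene of 5 exons, had 41.5 CPM in WT and 43.4, 37.7 and 78.0 CPM in KO1 to KO3 without treatment, and 44.2 CPM in WT against 42.1 and 34.9 CPM in KO1 and KO2 with doxorubicin. Its log2 fold change between KO and WT was 0.39 (SE 0.54) in control, −0.02 (SE 0.17) without KO3 and −0.21 (SE 0.20) with doxorubicin. Mrpl57 (chr14:57826234-57829296) had 23.3 CPM in WT and 23.0, 21.4 and 61.0 CPM in KO1 to KO3 without treatment, and log2 fold changes of 0.63 (SE 0.76) in control and 0.25 (SE 0.23) with doxorubicin. Mrps16 had log2 fold changes of 0.38 (SE 0.50) in control, 0.02 (SE 0.17) without KO3 and 0.05 (SE 0.32) with doxorubicin. Without KO3, the control differences of Mrpl52 and Mrps16 lay within their SE. With doxorubicin that of Mrps16 did too, while those of Mrpl52 and Mrpl57 were slightly larger than their SE. None passed the threshold.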

How the data were processed

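RNA-Seq counts per gene were analysed for 9 libraries of MEFs. The authors merged 4 FASTQ files per sample, aligned reads to mm10 with HISAT2 (2.1.0 per the labels, another version in the methods) and counted them with HTSeq; the deposited table holds whole-number counts for 24062 genes, without normalization. The strand setting is not given in the sources used here, and 18 of the 77 genes share at least 1% of their exonic bases with another gene. Groups were taken from the labels. Genes were filtered with filterByExpr, libraries were scaled with TMM, and groups were compared with edgeR 4.0.16 (glmQLFit, glmQLFTest, two-sided, Benjamini-Hochberg over all genes tested, FDR under 0.01) in R 4.3.3. SEs were computed from the log2 fold change and its F statistic. CPM on the log2 scale used a prior count of 2. DESeq2 1.42.0 and RUVg with 1 factor and an exact test, leaving out 5000 genes as possible non-controls, were alternatives. The tests were checked on simulated data. The members and lists were chosen with earlier results of these data known. Genes named are the 8 lowest and 8 highest fold changes with doxorubicin, the 2 smallest p per genotype comparison, the 3 highest and 3 lowest mean levels, the genes of chromosome 14, the S18 paralogs, and Mrps28, Mrps30, Mrps36, Mrpl12, Mrpl33, Mrpl41 and Mrpl44. Mrpl53 and the genes listed by their calls or levels per kilobase were named after their values were seen. Gene models are GENCODE vM21 (GRCm38). The pairing comes from the labels, whose numbers name the embryos, and the treated library called KO2 may be that of KO3. The log2 ratio of KO1 to KO2 without treatment correlated with the same ratio under doxorubicin (Pearson's r = 0.43 over 14904 genes, which are not independent). Whether embryos are littermates is not given.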

Additional observations from a re-analysis of the deposited data

Results flagged for a closer look

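For 6 of the 33 named genes, a single one of the 4 doxorubicin libraries lay apart from the rest relative to their range. Its gap to the nearest was a larger share of the range than the 95% critical value of Dixon's test allows. A gap of this kind can be small in CPM. By chance this occurs in about 1 of 20 groups. In 5 of the 6 it was the Het library with doxorubicin, which was higher for Mrpl20 (101.7 CPM, against 76.6 to 79.0) and Mrps17 (21.4 CPM, against 14.6 to 15.8) and lower for Mrps15 (25.1 CPM, against 37.7 to 39.0), Mrps25 (31.4 CPM, against 52.3 to 55.0) and Mrps30 (22.9 CPM, against 37.8 to 38.3). For Mrpl19 it was the WT library with doxorubicin (7.66 CPM, against 8.77 to 8.96).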

How the results depend on the processing

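For doxorubicin against control over all genotypes, the lower genes numbered 13 with total counts, and 11 to 27 when 1 embryo was left out. The higher genes numbered 4 with DESeq2 size factors, upper-quartile scaling, the DESeq2 Wald test, an FDR of 0.05 and the embryo (replicate) block, 1 with total counts and with RUVg, 0 to 7 when 1 embryo was left out, and 17 without the Het embryo and KO3, with or without the block. The median log2 fold change stayed below 0 under all 14 alternatives other than the looser FDR, between −0.44 (RUVg) and −0.15 (upper-quartile scaling, which moved the median of all genes from 0.02 to 0.21). Mrpl20 and Mrpl33 turned from −0.13 and −0.09 to 0.34 and 0.54 without the Het embryo and KO3, also with the block. Over the 33 named genes, 32 values lost a call, 34 gained one, 4 reversed as just given, and the rest kept direction and side of the threshold or changed sign without a call. In KO alone, the lower genes numbered 0 with total counts, 18 with DESeq2, 17 at an FDR of 0.05, 24 with the block, 32 with RUVg and 0 to 20 without a KO embryo. The higher genes numbered 1 with DESeq2, 1 at an FDR of 0.05, 16 with the block, 2 with RUVg and 0 to 11 without a KO embryo, and the median was −0.39 with total counts, −0.19 with upper-quartile scaling, −0.10 with the block, −0.42 with RUVg and −0.55 to −0.12 without a KO embryo. For KO against WT with doxorubicin, RUVg gave 1 lower and 5 higher genes and total counts a median of 0.13. For Het against WT, total counts gave a median of 0.72, and 0 to 9 genes were higher when a KO embryo was left out. The block changed no call of the interaction among these genes, and KO against WT could not be fitted with it because each embryo has 1 genotype. The cause was not tested. Counts of calls without a share over all genes here or above cannot be set beside all genes. Leaving out a KO embryo from KO against WT with doxorubicin left no residual degrees of freedom and was not run. With 1 WT and 1 Het embryo, genotype results rest on the spread between KO embryos, and Mrpl23 is limited by its counts. Alternatives with the block without the Het embryo and KO3, and the split by transcript length, were chosen after seeing the data.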
